A study of Homo sapiens with 8 samples.

Results

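The 10 genes described here encode members of the TNF receptor superfamily: TNFRSF1A, TNFRSF1B, TNFRSF9, TNFRSF10A, TNFRSF10B, TNFRSF10D, TNFRSF11B, TNFRSF12A, TNFRSF21 and LTBR. They were taken by name from a table of 54174 gene symbols, and all 10 carried a value in every library. The cells were 143B, an established human osteosarcoma line, cultured in serum-containing medium and transfected transiently, with no allele or agent stated beyond the plasmid. The 4 control libraries came from cells given a vector plasmid and the 4 knockout libraries from cells given a NELL1KO plasmid, all collected at 48 h. The series calls the 4 libraries of a group biological replicates. Neither the labels nor the design text says what made them separate, or whether transfected cells were selected, so p-values measure the spread between these libraries, which may be partly technical.

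Receptors of this family bind trimeric ligands of the TNF family at the cell surface. Some carry a death domain, which recruits adaptors that activate caspases or NF-kappaB, others bind TRAF adaptor proteins directly, and a few lack a working intracellular part and compete for ligand as decoys. In bone, the soluble decoy osteoprotegerin, encoded by TNFRSF11B, holds back RANKL, the ligand that drives osteoclast formation, and it can also bind the death ligand TRAIL.

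Values are the deposited log2 signals, which had been quantile normalized between libraries. The unit before the logarithm is not given in the sources used here, so levels were not compared between genes, and the sequencing depth is unknown. Knockout libraries 1 and 2 lay close together, with an SD across genes of their difference of 0.12 log2 units, as did knockout libraries 3 and 4 (0.13). Between these pairs the SD was 0.46 to 0.50, above the 0.36 to 0.45 between any knockout and any control library. Differences are therefore also given within replicates 1-2 and within replicates 3-4, and with each close knockout pair averaged to 1 library. Controls were assigned to these sets by replicate number, a pairing that the data do not settle. Between control libraries the SD ran from 0.10 to 0.29, and it was lowest between controls 1 and 2. The averaged fit kept the 4 controls separate, so close controls still counted as independent there. NELL1, the targeted gene, had -5.87 ± 1.29 (SD, n = 4) in control and -5.88 ± 1.07 (SD, n = 3, 1 cell blank) in knockout libraries, so its transcript did not check the labels. Of the 12 bone and mesenchymal markers examined, 6 exceeded 0 in some library (RUNX2, COL1A1, SPARC, SPP1, VIM and TWIST1), while SP7 and IBSP were blank throughout. The 9 immune markers included 1 above 0, the lysosomal gene CD68, with PTPRC blank in all libraries. No endothelial marker of 4 exceeded 0, and of 5 epithelial markers only EPCAM did.

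In knockout libraries 9 of the 10 receptor genes had a lower mean than in controls, and for 6 of them (TNFRSF1A, TNFRSF1B, TNFRSF9, TNFRSF10A, TNFRSF10B and TNFRSF10D) every knockout value lay below every control value. Across the 13943 genes with a complete row, 47.1% had a lower knockout mean and 9.02% had all knockout values below all control values (10.4% of the fitted genes). The members were chosen with earlier results of these data known, so these counts describe the 10 genes and not the receptor family. Other receptors of the family went both ways (below). The limma fit covered 9016 genes whose mean reached 1, and 7 of the receptor genes were among them. Of these 7, TNFRSF10A and TNFRSF10B fell at a Benjamini-Hochberg adjusted p under 0.05 and no member rose. The fit called 13.1% of all its genes, 6.1% as lower and 7.02% as higher in knockout libraries. At an unadjusted limma p under 0.05, 4 of the 7 passed, all lower, TNFRSF11B and TNFRSF1A being the additional ones. The share of all fitted genes at that unadjusted threshold is not given here, and 13.1% refers to the adjusted one. The unadjusted counts, here and below, therefore have no background and are not read as a result about the genes. The median difference of the 7 was -0.27 log2 units, beside 0.01 for all fitted genes. When each close knockout pair was averaged, none of the 7 passed the adjusted limma threshold, 3 passed unadjusted, and 1.2% of all fitted genes were called, 0.71% as lower.

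**Figure D1:**
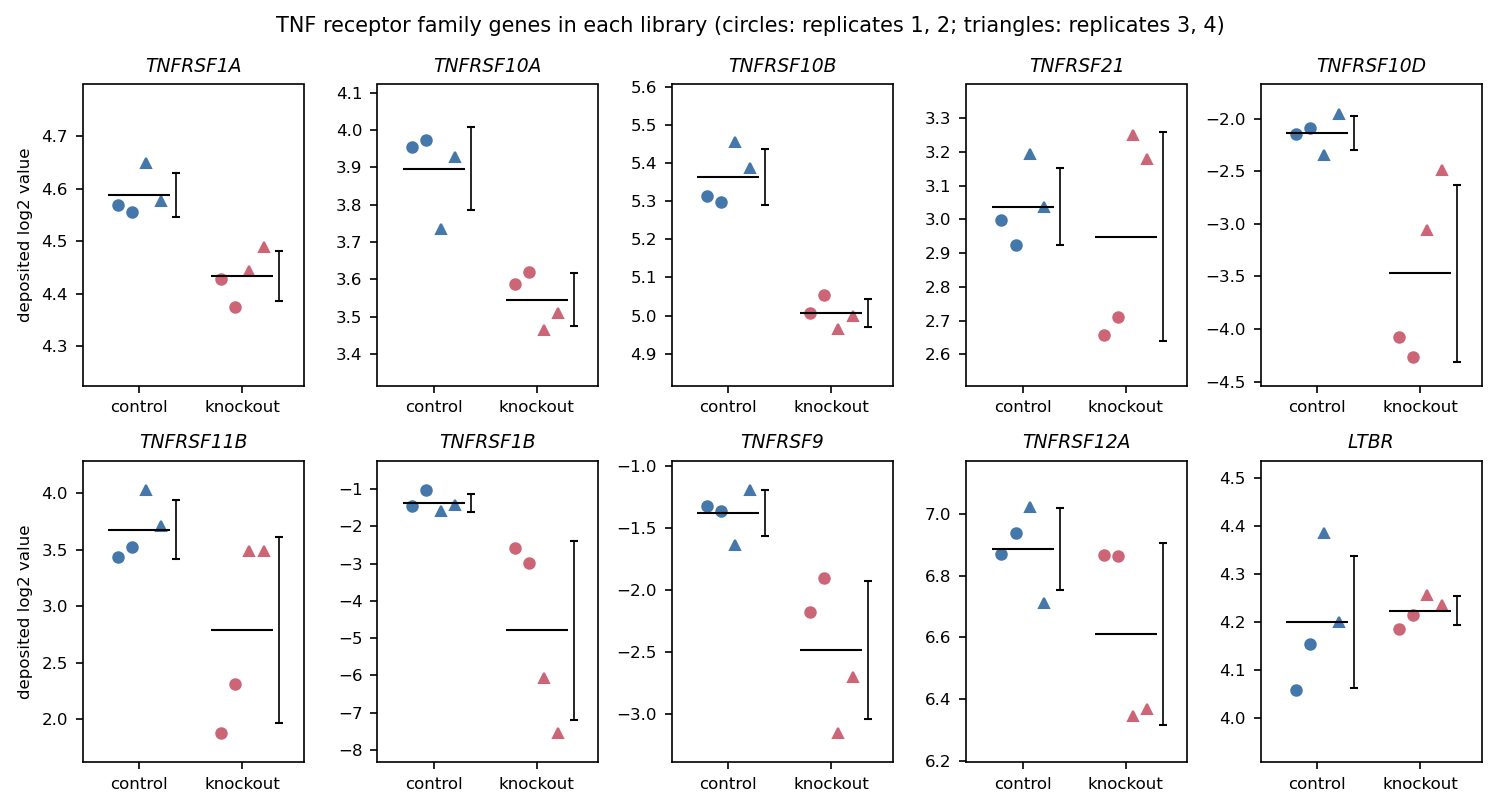
Deposited log2 value of each receptor gene in the 4 control (blue) and 4 knockout (red) libraries; circles are replicates 1 and 2, triangles replicates 3 and 4, horizontal lines group means and bars the SD (n = 4), with a separate vertical scale in each panel. The knockout values of TNFRSF1A, TNFRSF10A, TNFRSF10B, TNFRSF10D, TNFRSF1B and TNFRSF9 lie below all control values, and those of the other 4 genes overlap the controls.

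Promoter sequence was examined for the members with an entry among the RefSeq start-site windows of GRCh38.p14, 300 bases each (250 before and 50 after the annotated start). The windows covered 5 of the 10 members: TNFRSF1A, TNFRSF1B, TNFRSF9, TNFRSF21 and LTBR. Both strands were searched for the kappaB consensus bound by NF-kappaB, the AP-1 site TGANTCA, the GC box GGGCGG and the TATA box TATAAA. The kappaB stretches are shown because TNFRSF9 was the only window of the 5 with a kappaB match. NFKBIA, an NF-kappaB target that fell in the knockout libraries (values below), holds the same 10 letters on the other strand. It was picked with its fall known. Matches in other NF-kappaB targets were not compared, and a link of the motif to either gene's level was not tested. The other stretches show further motif matches of the members. Capitals mark the motif, and positions count back from the base before the start.
TNFRSF9 kappaB, minus strand of chr1:7940896-7940921, positions -82 to -57: gctgtggtGGGAATTTCCCatgagac
TNFRSF9 AP-1, minus strand of chr1:7940867-7940892, positions -53 to -28: gcccctggcTGAGTCAccgcactcct
NFKBIA kappaB, minus strand of chr14:35404813-35404838, positions -89 to -64: actggcttGGAAATTCCCcgagcctg
TNFRSF1B GC boxes, plus strand of chr1:12166926-12166951, positions -65 to -40: ccggctggccCCGCCCCGCCCcgccg
LTBR GC boxes, plus strand of chr12:6384033-6384058, positions -129 to -104: gctttcccggCCGCCCctcCCGCCCc
In TNFRSF9 the match GGGAATTTCC begins at position -74 and overlaps a second match, GGGAAATTCC, read on the other strand. The TNFRSF1B window held 2 overlapping GC boxes, LTBR held 4, TNFRSF9 and TNFRSF21 held 1 each, while TNFRSF1A had no match to any of the 4 motifs. Of 35116 windows in the table, 5.91% held the kappaB consensus, 7.71% the AP-1 site, 44.95% the GC box and 11.53% the TATA box. A match describes letters in these windows and is not evidence of binding. The RefSeq starts of TNFRSF9 and LTBR lie inside the gene spans of GENCODE 29 given further on.

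TNFRSF10A and TNFRSF10B encode the death-domain receptors for TRAIL, a ligand that triggers apoptosis in many tumour cells. TNFRSF10B (chromosome 8, 23020133 to 23069179, GRCh38 in GENCODE 29) was 5.31, 5.30, 5.46 and 5.39 in control libraries 1 to 4 and 5.01, 5.05, 4.97 and 5.00 in knockout libraries 1 to 4. The groups were separated by a gap of 0.24, and no knockout library stood apart from the others. The control mean was 5.36 ± 0.07 and the knockout mean 5.01 ± 0.04 (SD, n = 4 each). The knockout level thus fell by 0.36 ± 0.06 on the log2 scale (limma SE and adjusted p = 0.0103). The difference was -0.28 in replicates 1-2 and -0.44 in replicates 3-4. With averaged knockout pairs the same difference had a limma adjusted p of 0.09999. The call held when any 1 of the 8 libraries was left out (limma adjusted p from 0.0134 to 0.0470).

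TNFRSF10A (chromosome 8, 23190452 to 23225126) was 3.95, 3.97, 3.73 and 3.93 in control libraries 1 to 4 and 3.59, 3.62, 3.46 and 3.51 in knockout libraries 1 to 4. Control library 3 was the lowest control and knockout library 2 the highest knockout, and 0.11 lay between them. The means were 3.90 ± 0.11 and 3.55 ± 0.07 (SD, n = 4 each), so the gene fell by 0.35 ± 0.08 on the log2 scale (limma SE and adjusted p = 0.0214). Its size was nearly equal in both sets of replicates, -0.36 in 1 and 2 and -0.34 in 3 and 4. The call was lost without control library 1 (limma adjusted p = 0.0734), control library 2 (0.0775), control library 4 (0.0769) or knockout library 3 (0.0557), where the difference was -0.32 to -0.34, and with averaged knockout pairs (0.136).

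TNFRSF1A, the widely expressed death-domain receptor for TNF, showed a smaller difference. Its values were 4.57, 4.56, 4.65 and 4.58 in control libraries 1 to 4 and 4.43, 4.37, 4.44 and 4.49 in knockout libraries 1 to 4. The groups did not overlap, but the gap was 0.07. The log2 fold change was -0.15 ± 0.06 (SE), which did not pass in the fit (limma adjusted p = 0.119). The exact two-sided permutation test over 70 splits gave its smallest possible value, p = 0.0286, as it did for each of the 6 genes without overlap. The test takes the libraries of both groups as independent, including the close knockout and control libraries. The difference was -0.16 in replicates 1-2 and -0.15 in replicates 3-4.

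TNFRSF21, death receptor 6, had no common direction. It was 3.00, 2.92, 3.19 and 3.04 in control libraries 1 to 4 and 2.66, 2.71, 3.25 and 3.18 in knockout libraries 1 to 4. Knockout libraries 1 and 2 lay below all controls, and knockout library 3 lay above them. The difference was -0.09 ± 0.15 log2 units (limma SE and adjusted p = 0.725), made up of -0.28 in replicates 1-2 and 0.10 in replicates 3-4.

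Both decoy receptors among the members were lowest in knockout libraries 1 and 2. TNFRSF10D encodes a TRAIL receptor with a truncated death domain. It was low in the table, with -2.15, -2.09, -2.35 and -1.95 in control libraries 1 to 4 and -4.07, -4.26, -3.06 and -2.48 in knockout libraries 1 to 4. All knockout values lay below the controls, although knockout library 4 came within 0.14 of the lowest control. The difference in means was -1.33, from -2.14 ± 0.16 to -3.47 ± 0.84 (SD, n = 4 each; exact two-sided permutation test, p = 0.0286). It was -2.05 in replicates 1-2 and -0.62 in replicates 3-4, and with a pseudocount of 1 on the linear scale it shrank to -0.16. In the fit without the filter on low values the limma adjusted p was 0.0699.

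TNFRSF11B, which encodes osteoprotegerin, was 3.44, 3.53, 4.03 and 3.71 in control libraries 1 to 4 and 1.87, 2.31, 3.49 and 3.49 in knockout libraries 1 to 4. Knockout libraries 1 and 2 lay more than 1 log2 unit below every control, whereas knockout libraries 3 and 4 lay among the lower controls. The mean was 3.68 ± 0.26 in control and 2.79 ± 0.83 in knockout libraries (SD, n = 4 each), and the difference of -0.89 ± 0.36 (SE) did not pass (limma adjusted p = 0.143). The difference was -1.39 in replicates 1-2 and -0.38 in replicates 3-4, each against controls that also differed between the sets. A batch term for the sets of replicates gave a limma adjusted p of 0.0175, in a fit that called 25.2% of all genes. The number as a block gave 0.0635. Without knockout library 1 the difference was -0.58.

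The partners of osteoprotegerin are read from the family lists. TNFSF11, which encodes RANKL, and TNFSF10, which encodes TRAIL, had blank cells in all 8 libraries. TNFRSF11A, which encodes the RANKL receptor RANK, was -0.77, -0.61, 0.11 and -0.58 in control libraries 1 to 4 and -1.42, -0.92, 1.05 and 0.96 in knockout libraries 1 to 4. Knockout libraries 1 and 2 were below all controls and knockout libraries 3 and 4 above them, with differences of -0.48 and 1.24 in the sets. Whether the sets differ was not tested for any gene here. These 3 genes were named after their values had been seen.

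The remaining members signal through TRAF adaptors and have no death domain. TNFRSF1B encodes the second TNF receptor, which is best known from lymphocytes and endothelium. It was -1.44, -1.03, -1.58 and -1.43 in control libraries 1 to 4 and -2.57, -2.99, -6.07 and -7.55 in knockout libraries 1 to 4. Knockout libraries 3 and 4 fell to percentiles 4.62 and 1.18 of their libraries' measured genes, against 20.9 to 23.6 in the controls. The difference in means was -3.42, from -1.37 ± 0.24 to -4.80 ± 2.41 (SD, n = 4 each), with no overlap and a gap of 1.00 (exact two-sided permutation test, p = 0.0286). It was -1.54 in replicates 1-2 and -5.31 in replicates 3-4, and with a pseudocount of 1 on the linear scale it shrank to -0.37. The limma adjusted p without the filter was 0.0879, with a residual SD of 1.71 where genes averaging between -5 and -1 had a median of 0.49.

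TNFRSF9, which encodes the costimulatory receptor 4-1BB, was likewise lower in knockout libraries 3 and 4 than in 1 and 2. It was -1.32, -1.37, -1.64 and -1.20 in control libraries 1 to 4 and -2.18, -1.90, -3.16 and -2.70 in knockout libraries 1 to 4. Every knockout value was below every control, by at least 0.26, and knockout libraries 3 and 4 were the lowest. The difference was -1.10, from -1.38 ± 0.19 to -2.48 ± 0.56 (SD, n = 4 each; exact two-sided permutation test, p = 0.0286), with -0.70 in replicates 1-2 and -1.51 in replicates 3-4. With the pseudocount of 1 it shrank to -0.22. Without the filter TNFRSF9 was called (limma adjusted p = 0.0436), in a fit that called 8.3% of its genes, 3.64% as lower, and in which TNFRSF10A and TNFRSF10B were the other called members. Its kappaB match is the stretch printed above.

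TNFRSF12A encodes Fn14, the receptor for TWEAK. It was 6.87, 6.94, 7.02 and 6.71 in control libraries 1 to 4 and 6.87, 6.86, 6.34 and 6.37 in knockout libraries 1 to 4. Only knockout libraries 3 and 4 lay below the controls. The difference was -0.27 ± 0.14 log2 units (limma SE and adjusted p = 0.244), with -0.04 in replicates 1-2 and -0.51 in replicates 3-4. TNFSF12, which encodes TWEAK and was named after its values had been seen, was -1.23, -1.27, -0.57 and -1.19 in controls and -1.85, -1.50, -2.41 and -1.91 in knockout libraries, without overlap (limma adjusted p = 0.0585 without the filter).

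LTBR, the lymphotoxin beta receptor, which feeds the noncanonical NF-kappaB pathway, was the member whose groups were most alike. It was 4.06, 4.15, 4.38 and 4.20 in control libraries 1 to 4 and 4.19, 4.21, 4.26 and 4.24 in knockout libraries 1 to 4. All knockout values lay inside the control range. The difference was 0.02 ± 0.08 log2 units (limma SE and adjusted p = 0.870). Its ligand gene LTB, also named after its values had been seen, was -0.33, -0.48, -0.21 and -0.28 in controls and -0.18, -1.08, -3.22 and -3.21 in knockout libraries. Knockout libraries 3 and 4 stood below all others, and the fit without the filter did not call LTB (limma adjusted p = 0.181).

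**Figure D2:**
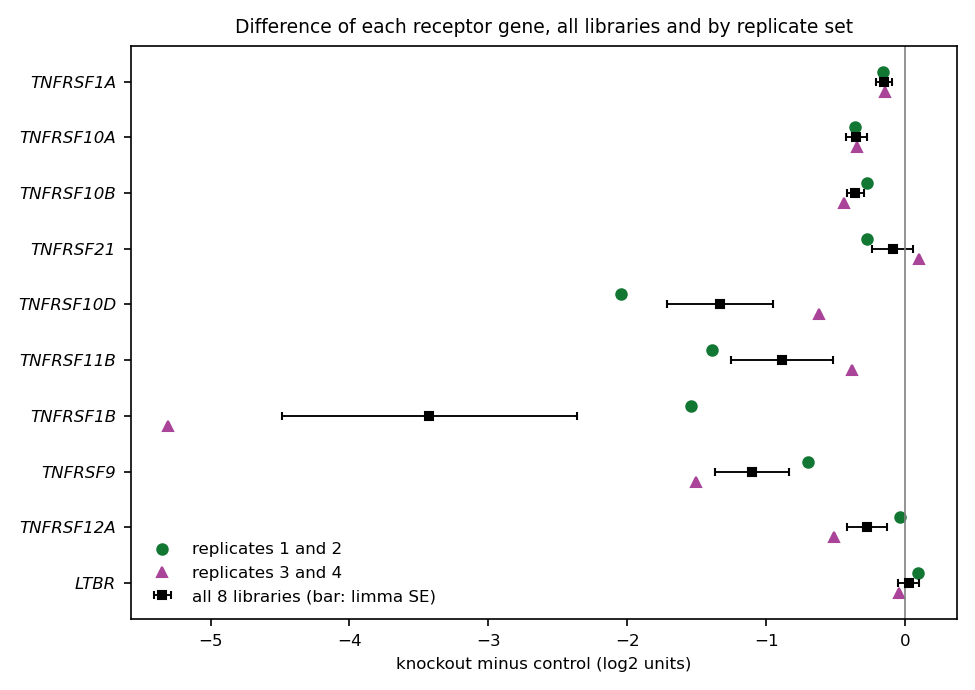
Knockout minus control (log2 units) for each receptor gene over all 8 libraries (black squares, bars limma SE, taken from the unfiltered fit for TNFRSF10D, TNFRSF1B and TNFRSF9), in replicates 1-2 (green circles) and in replicates 3-4 (purple triangles). TNFRSF10A and TNFRSF1A have nearly equal differences in both sets, TNFRSF10D and TNFRSF11B fall further left in replicates 1-2, and TNFRSF1B, TNFRSF9 and TNFRSF12A further left in replicates 3-4.

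By replicate set the 10 genes thus showed 3 arrangements, given as values without a test of the difference. The differences of TNFRSF1A, TNFRSF10A and TNFRSF10B varied between the sets by at most 0.16, and so did that of LTBR (0.14), although its sign changed. TNFRSF10D, TNFRSF11B and TNFRSF21 were lower in knockout libraries 1 and 2 than in 3 and 4, by 1.40, 1.40 and 0.53. TNFRSF1B, TNFRSF9 and TNFRSF12A were higher in knockout libraries 1 and 2 than in 3 and 4, by 4.03, 0.89 and 0.51. For 8 of the 10 genes the difference from control was negative in both sets, beside 25.1% of all genes with a complete row.

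The genes whose values over the 8 libraries most resembled each member, by Pearson's r among the fitted genes, are given as a description, since all points share the same libraries and their group difference. For TNFRSF10B they were S100A6, SLC20A1 and NONO (r = 0.99 to 1.00, n = 8). For TNFRSF10A they were OPTN (r = 1.00), SLC2A3 (0.99) and SCARF1 (0.99). TNFRSF11B was most like STX1A, TNS3 and KCTD15 (r = 0.99 to 1.00), and TNS3 changed by -1.17 and -0.36 in the sets where TNFRSF11B changed by -1.39 and -0.38. TNFRSF1B was most like APOC1, DVL1 and TFPI (r = 0.99 each), TNFRSF9 like KMT5B, ENSA and RALGAPB (r = 0.99 to 1.00), and TNFRSF10D like EFHD2, PNMA1 and IER2 (r = 0.98 to 0.99). TNFRSF21 was most like LRRC8A, PDLIM5 and ACTA2 (r = 0.99 to 1.00). For TNFRSF1A the genes were LPXN, CHMP7 and RABIF (r = 0.97 to 0.98), for TNFRSF12A ASB13, BTN2A2 and ZNF76 (r = 0.97 to 0.98) and for LTBR MEPCE, ENDOD1 and HS6ST1 (r = 0.97 each). Among the members themselves TNFRSF10A and TNFRSF9 had r = 0.93. TNFRSF9 and TNFRSF1B, TNFRSF10B and TNFRSF1A, and TNFRSF12A and TNFRSF1B had 0.90 each, and TNFRSF11B and TNFRSF10D had 0.89 (n = 8 each).

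The TNFRSF10 genes lie near one another on chromosome 8, with TNFRSF10D at 23135588 to 23164030 between TNFRSF10B and TNFRSF10A. Shared reads between such paralogs were checked on GENCODE 29 transcripts. Between 0% and 3.55% of the 50-base words in any member's transcripts also occurred in another gene, and for TNFRSF10A, TNFRSF10B and TNFRSF10D the share was 0.51%, 1.0% and 0.83%. On the opposite strand TNFRSF10A overlaps the antisense gene TNFRSF10A-AS1 and 2 other non-coding genes, TNFRSF10B overlaps RHOBTB2 and an antisense gene, TNFRSF12A overlaps CLDN6, LTBR overlaps SCNN1A and TNFRSF9 overlaps a pseudogene. The kit keeps strand, but whether counting used it is not given in the sources used here, so reads of these genes cannot be told apart from reads of their partners. TNFRSF1A (chromosome 12, 6328757 to 6342114), TNFRSF21 (chromosome 6, 47231532 to 47309905), TNFRSF11B (chromosome 8, 118923557 to 118952200) and TNFRSF10D overlapped no other annotated gene. TNFRSF1B (chromosome 1, 12167003 to 12209228) holds 2 microRNA genes on its own strand. The remaining members lie on chromosome 1 (TNFRSF9, 7915894 to 7943165), chromosome 16 (TNFRSF12A, 3018445 to 3022383) and chromosome 12 (LTBR, 6375045 to 6391571).

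Around the receptors, 7 lists of pathway genes held 123 genes, of which 65 were in the fit. Of these 65, 15 fell and 4 rose (limma adjusted p under 0.05), which is 29.2% beside 13.1% of all fitted genes, with a median of -0.14. The list of NF-kappaB targets, with 16 fitted genes, held 8 of the 15 that fell and 1 of the 4 that rose. The lists were written with earlier results of these data known, so the pooled share describes them and is no independent evidence about the pathway. With the replicate number as a block 13 were called, in a fit that called 10.2% of all genes. With averaged knockout pairs 5 remained in the call, in a fit that called 1.2% of all genes: ADAM8, NFKBIA, RELB, ICAM1 and MMP9.

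The other receptors of the family were mostly too low to be fitted. Of 19, 10 had a complete row, 7 had some blank cells and CD27 and TNFRSF13B were blank throughout. Among the 10, FAS, TNFRSF10C, TNFRSF14, TNFRSF19 and TNFRSF25 had a lower knockout mean. TNFRSF6B, TNFRSF11A, TNFRSF13C, NGFR and RELT had a higher one. Of the 3 in the fit (TNFRSF6B, TNFRSF19 and RELT) none was called by limma in either direction, and 1, TNFRSF19, had an unadjusted p under 0.05 (adjusted p = 0.1204). TNFRSF19, an orphan receptor named after its values had been seen, was 2.69, 2.63, 2.51 and 2.63 in controls and 0.79, 0.99, 2.43 and 2.37 in knockout libraries. Knockout libraries 1 and 2 carried nearly all of the difference, -1.77 against -0.17 in replicates 3-4, and all 4 values lay below the controls. FAS, the classical death receptor, overlapped between groups, with -1.31 ± 0.32 in control and -1.32 ± 0.28 in knockout libraries (SD, n = 4 each). TNFRSF25 was lower in all knockout libraries, by 0.81 (limma adjusted p = 0.0882 without the filter). TNFRSF10C differed by -0.57 and TNFRSF6B by 0.46, both with overlap. These receptors and FAS were named after their values had been seen. Of 18 ligand genes 1 was in the fit, CD70, which differed by -0.22 ± 0.12 log2 units (limma SE and adjusted p = 0.278), 0 of 1 passed at an unadjusted p under 0.05, and TNFSF10, TNFSF11, CD40LG and FASLG were blank. Ligand genes under the filter went both ways. EDA was higher in all knockout libraries, by 0.38 (limma adjusted p = 0.0687 without the filter). TNFSF18 ran from -1.48 to 0.25 in knockout libraries and from -3.88 to -2.65 in controls, with 1 control cell blank. Both were named after their values had been seen.

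**Figure D3:**
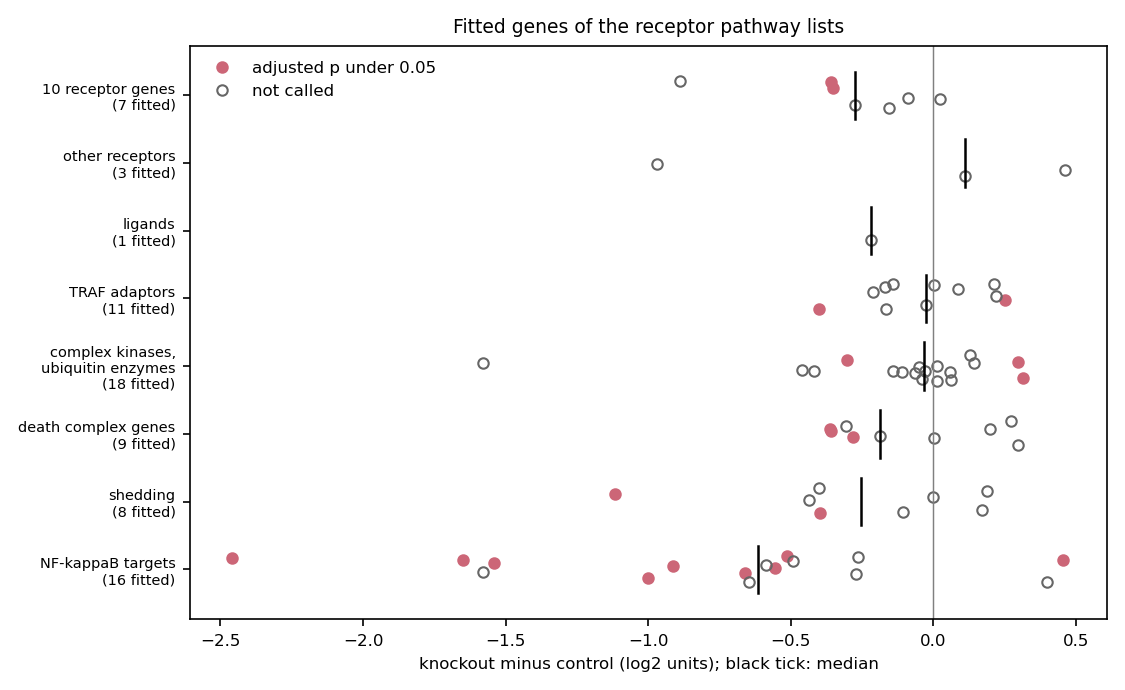
Knockout minus control (log2 units) for the fitted genes of each list, 1 point per gene; filled red points have a limma adjusted p under 0.05, open points were not called, and black ticks are list medians. The NF-kappaB targets have the most called genes (9 of 16), the receptors 2 of 7, and the other receptors and ligands none.

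The death-complex genes act directly below the TRAIL receptors. Of 9 in the fit, 3 fell, none rose and 6 did not pass, with a median of -0.19, beside 6.1% of all fitted genes called lower. The differences went both ways, with 5 of the 9 below 0. FADD, the adaptor that joins the receptor's death domain to caspase-8, was 5.56, 5.62, 5.61 and 5.66 in control libraries 1 to 4 and 5.24, 5.26, 5.32 and 5.18 in knockout libraries 1 to 4. No library stood apart within its group. The fall was 0.36 ± 0.06 (SE; limma adjusted p = 0.00868), with -0.34 and -0.38 in the sets. CASP8, the initiator caspase, fell by 0.28 (limma adjusted p = 0.0196, and 0.0506 with the replicate block). CFLAR, which encodes the caspase-8 inhibitor FLIP, was under the filter at 0.59 ± 0.08 in control and 0.41 ± 0.13 in knockout libraries (SD, n = 4 each). BID and CASP8AP2 were higher in every knockout library than in any control, by 0.20 and 0.27. Neither passed (limma adjusted p = 0.0889 and 0.0524). With averaged knockout pairs neither FADD nor CASP8 passed (limma adjusted p = 0.0793 and 0.144). FADD was the list's gene under the naming rule, and the others were named after their values had been seen.

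Of 11 TRAF adaptors and their partners in the fit, 1 rose, 1 fell and 9 did not pass, and the median of their differences, which went both ways, was -0.02. The fit called 13.1% of all its genes, and whether the list departs from that share was not tested. TANK, a TRAF-binding regulator, fell by 0.40 (limma adjusted p = 0.0159). TRAF3IP1, an intraflagellar transport protein that binds TRAF3, rose by 0.25 (limma adjusted p = 0.0474). That call was lost with the replicate block (0.107), median centring (0.0521), further quantile normalization (0.0543) and the pseudocount (0.0674). It was also lost without the filter (0.0740) and with averaged knockout pairs (0.173). With 1 library left out, the call held only without control library 3 (0.0410), and it held with the batch term (0.0280). TRAF2, TRAF3 and TRAF6 had differences of 0.21, -0.16 and -0.02, none of which passed.

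Among the kinases and ubiquitin enzymes of the receptor complex 2 of 18 rose, 1 fell and 15 did not pass, with a median of -0.03. Over all fitted genes 7.02% were called higher and 6.1% lower. Whether the list departs from these shares was not tested. CHUK, a catalytic subunit of the IkappaB kinase, rose by 0.31 (limma adjusted p = 0.0317). TAB2, an adaptor of the kinase TAK1, fell by 0.30 (limma adjusted p = 0.0375). IKBKG, the regulatory subunit NEMO, was the other gene that rose, by 0.30. None of these 3 kept its call with the replicate block (limma adjusted p = 0.0706, 0.0551 and 0.0634). BIRC3, a ubiquitin ligase of the TNF receptor complex, was named after its values had been seen. It was 2.24, 2.10, 2.19 and 2.17 in controls and 1.76, 1.77, -0.51 and -0.64 in knockout libraries. All 4 knockout values were below the controls, with -0.40 and -2.76 in the sets, and the fit did not call it (limma adjusted p = 0.102). RIPK1, the kinase recruited by TNFRSF1A, differed by -0.14 (limma adjusted p = 0.292).

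The shedding list holds proteases that release receptor ectodomains and their regulators. In it 2 of 8 genes fell, none rose and 6 did not pass, with a median of -0.25, beside 6.1% of all fitted genes called lower. ADAM8, a membrane metalloprotease, was 1.668, 1.636, 1.378 and 1.602 in controls and 0.58, 0.79, 0.20 and 0.25 in knockout libraries. All 4 knockout values lay below the controls, and the fall was 1.12 ± 0.14 (SE; limma adjusted p = 0.00319). RHBDF1, a partner of ADAM17, fell by 0.40 (limma adjusted p = 0.0196, and 0.0624 with the block). ADAM17, the main sheddase of TNF receptors, differed by -0.11 (limma adjusted p = 0.648).

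The list of TNF-induced NF-kappaB targets had 16 fitted genes, of which 8 fell, 1 rose and 7 did not pass, with a median of -0.62, beside 13.1% of all fitted genes called. The genes that fell were NFKBIA, NFKB1, NFKB2, RELB, ICAM1, MMP9, PTGS2 and CD83. NFKBIA, the NF-kappaB inhibitor whose promoter stretch is printed above, was 5.13, 5.20, 5.48 and 5.32 in controls and 4.35, 4.42, 4.21 and 4.16 in knockout libraries. Its fall of 1.00 ± 0.10 (SE; limma adjusted p = 0.00133) was -0.78 and -1.22 in the sets. SOD2, a mitochondrial antioxidant enzyme, was the gene that rose, by 0.45 ± 0.09 (SE; limma adjusted p = 0.0186). MMP9, a matrix protease and the list's largest fall, changed by -2.46 ± 0.38 (SE; limma adjusted p = 0.00696). CXCL8 and IER3 did not pass (limma adjusted p = 0.669 and 0.200), and TNF itself had 2 blank knockout cells and values from -5.99 to -4.37 elsewhere. The list holds 31 genes, 28 with a complete row, and those under the filter went both ways. CXCL1, CXCL2, CCL2, IL6, TNFAIP8 and TRAF1 had higher knockout means, all with overlap. TNFAIP3, CXCL3, BCL3, NUAK2, CSF2 and LIF had lower ones, of which only CSF2 and LIF were without overlap. Parts of this pattern were known when the list was written, so the count describes the list and does not support it independently.

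**Figure D4:**
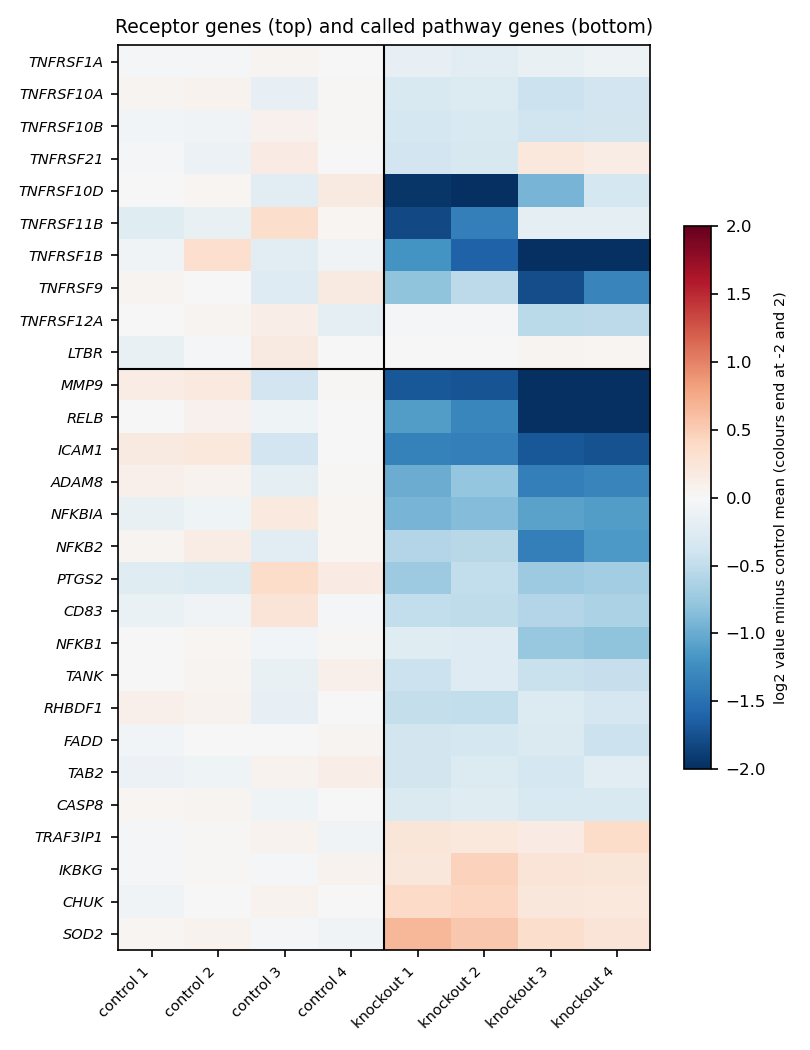
Log2 value minus the gene's control mean in each library for the 10 receptor genes (top block) and 18 called pathway genes (bottom block), red above and blue below the control mean, with colours ending at -2 and 2. TNFRSF10A and TNFRSF10B are evenly pale blue across the knockout columns, and TNFRSF10D and TNFRSF11B are darkest in knockout libraries 1 and 2 where TNFRSF1B and TNFRSF9 are darkest in 3 and 4.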

How the data were processed

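RNA of 4 control and 4 knockout libraries of the 143B line was extracted with TRIzol and made into stranded total-RNA libraries, per the labels' protocols. The submitters' processing notes name bcl2fastq, Partek 7.0 and GRCh38; aligner, counting rule, annotation and the meaning of blank cells are not given in the sources used here. The deposited table holds log2 values that the authors had quantile normalized, seen from the equal mean (1.07) and median (1.77) of every library; base 2 was inferred from the range (-10.5 to 12.1). Such values show changes relative to other genes only. In bulk RNA, fewer cells of a type and less RNA per cell cannot be told apart. No counts are given, so no counting error or floor can be attached.

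Groups and replicate numbers came from titles and columns from description labels; no column was left out. Genes with complete rows and a mean of at least 1 were fitted with limma 3.58.1 in R 4.3.3 (no trend, no covariate), adjusted over all 9016 genes, after the script was tested on simulated data. Members under the filter were compared by exact permutation. Every member was named, NELL1 as target and, per list, the called gene with the largest rise and fall without overlap. Likeness was the 3 highest Pearson r. All other pathway genes given with values fall outside this rule and were picked with their values known. Members, lists and alternatives were chosen with earlier results of these data known. Same-numbered control and knockout libraries had deviations from their group means that correlated across genes at 0.20 to 0.29 in the 4 pairs. However, the same-numbered library was the best match for only 4 of the 8 libraries. Taking the numbers as a pairing was therefore a choice that neither these data nor the labels settle. Whether the close knockout pairs alone give such correlations was not tested. Gene positions came from GENCODE 29 (GRCh38) and promoter windows from RefSeq (GRCh38.p14). Some results on single genes are not reported here.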

Additional observations from a re-analysis of the deposited data

How the results depend on the processing

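Against 1183 genes called over all 8 libraries, a mean of at least 3 gave 729, a batch term for replicates 1-2 against 3-4 gave 2274, averaged knockout pairs 108, replicates 1-2 alone 5380 and replicates 3-4 alone 2987; leaving out 1 library gave 391 to 1353 (391 to 444 without control library 1, 2 or 4, and 716 without knockout library 3). Of the receptor genes, 2 were called, beside 0 with averaged pairs (limma, 3 at an unadjusted p under 0.05), 5 in replicates 1-2 alone, 4 in replicates 3-4 alone and 1 to 2 when 1 library was left out; TNFRSF10B kept its call in each of those 8 fits. Of the pathway genes, 19 were called, beside 7 with a mean of at least 3, 5 with averaged pairs, 43 and 30 in replicates 1-2 and 3-4 alone, and 7 to 18 with 1 library left out (7 or 8 without control library 1, 2 or 4, and 12 without knockout library 3). The difference of TNFRSF21 turned to 0.10 in replicates 3-4 alone and ran from -0.19 to 0.0084 with 1 library left out, turning positive without knockout library 1. That of LTBR turned to -0.047 in replicates 3-4 alone and ran from -0.023 to 0.086 with 1 library left out, turning negative without control library 1; none of these passed. The replicate block left TNFRSF10A (limma adjusted p = 0.0342) and TNFRSF10B (0.0389) called, changed no member's call, and gave 924 called genes and 13 pathway genes; beyond the lost calls named above it removed NFKB1 (0.0545) and added BCL2A1. Leaving out 1 library moved the difference of TNFRSF1B between -4.17 and -2.50, of TNFRSF10D between -1.66 and -1.07, of TNFRSF11B between -1.12 and -0.58 and of TNFRSF9 between -1.30 and -0.88. The cause of these shifts was not tested. Fewer libraries or genes in a fit change its power, and unknown depth leaves the precision of the low genes to the spread between libraries.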
